A study of Mus musculus with 8 samples.

Results

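The 10 genes followed here mark alveolar macrophages and were measured in lung cell preparations enriched for neutrophils: Marco, Ear1, Ear2, Krt79, Mrc1, Fabp4, Pparg, Plet1, Atp6v0d2 and Ctsk. The genes were chosen by name, as known markers of this cell, but with earlier results of these data known. Their rows were found through RefSeq transcript identifiers. Of the 10 genes, 8 had a row among the 24625 rows of the array table, and each of the 8 had 1 row. Fabp4 and Plet1 had no matched row and were not analysed here.

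The comparison was between 4 samples from wild-type mice given Streptococcus pneumoniae (SP) into the left lung through the trachea and 4 samples from wild-type mice given phosphate-buffered saline (PBS) the same way, at 2.3 µl per g body weight. The mice were C57BL/6J, 6 to 12 weeks old per the labels, and lungs were taken after 24 h. Lung cells were bound to magnetic beads through Ly6G, a surface protein of neutrophils, so both groups are bead-enriched preparations and not pure cells. Per the study's methods, purity was judged on stained slides in the pneumonia samples only, where nearly all cells were counted as neutrophils. The few other cells there mostly looked like alveolar macrophages and rarely like eosinophils. The methods also describe high Ly6G mRNA in each sample, which could not be checked here because Ly6g had no matched row. The study describes each sample as that of 1 mouse, which the labels do not state. The p-values therefore set a group difference against the spread between these samples, 4 per group throughout. Because RNA was measured in bulk, fewer macrophages among the cells, less RNA per macrophage and changes in RNA from other cell types cannot be told apart.

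Alveolar macrophages live on the air side of the lung, where they take up surfactant lipid, dust and microbes. Granulocyte-macrophage colony-stimulating factor (GM-CSF) from the epithelium, together with TGF-β, turns on the nuclear receptor PPARγ in fetal monocytes, and PPARγ sets up the lipid-handling state of the mature cell. The markers fall into several roles: Mrc1 and Marco are uptake receptors, Ear1 and Ear2 are secreted ribonucleases, Pparg is the regulator, Krt79 is a keratin, and Atp6v0d2 and Ctsk belong to the acidic lysosomal compartment that macrophages share with bone-resorbing osteoclasts.

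Values are log2 signals of Affymetrix arrays after robust multi-array averaging (RMA), so a difference of 1 is 2-fold. A row was called when limma, fitted over all rows, gave a Benjamini-Hochberg adjusted p of at most 0.05 and a difference of at least 1. By this rule 11.3% of all rows were lower and 6.37% were higher in SP than in PBS, and in 21.8% of all rows every SP array lay below every PBS array. Of the 8 markers, 5 were called lower (Mrc1, Krt79, Ear1, Pparg and Ear2), none was called higher, and these 5 were also the markers in which the groups did not overlap. The median difference of the 8 was -1.49, against 0.10 over all rows. Marco, Atp6v0d2 and Ctsk did not pass.

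Array medians were 6.06 to 6.20 in PBS and 5.78 to 5.91 in SP, and centring arrays on their medians raised every SP difference by about 0.28, so that the all-row median became 0.384 and the calls over all rows went from 2773 lower and 1568 higher to 1896 lower and 2375 higher. Another quantile normalization gave 2198 lower and 1878 higher. The same count of markers, 5 lower and 0 higher, was obtained under both. Y-linked genes, a measure of background because the methods name female mice, read 4.33 to 4.90.

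**Figure D1:**
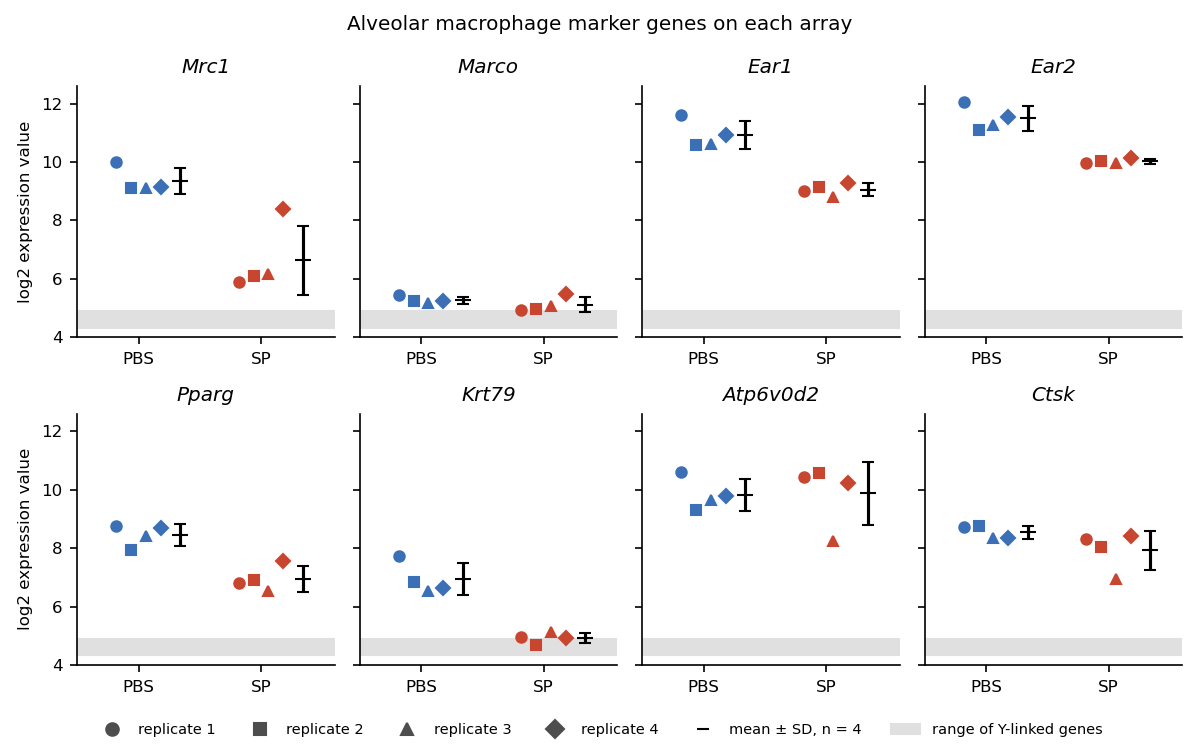
Log2 RMA signal of the 8 markers with a row, 1 point per array with replicates told apart by shape, the group mean ± SD beside them (n = 4), and the range of the Y-linked genes in grey. All SP points lie below all PBS points for Mrc1, Ear1, Ear2, Krt79 and Pparg, whereas the groups overlap for Marco, Atp6v0d2 and Ctsk.

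Mrc1 (NM_008625) encodes the macrophage mannose receptor CD206, which binds mannose-ended sugars on microbes and host glycoproteins. Its log2 signal was 10.01, 9.10, 9.11 and 9.13 in PBS replicates 1 to 4 and 5.89, 6.11, 6.15 and 8.40 in SP replicates 1 to 4. SP replicates 1 to 3 sat close together, and SP replicate 4 stood well above them yet still under every PBS array. The mean fell from 9.34 ± 0.45 (SD) to 6.64 ± 1.18, a difference of -2.70 (SE 0.54, 95% confidence interval -3.94 to -1.46) or 6.50-fold, with a limma adjusted p of 0.00448. Leaving out SP replicate 4 gave -3.29. In the same replicate the list means of lung endothelium (9.76, against 8.63 to 9.43 in the other SP arrays), lung epithelium (10.98, against 10.02 to 10.61) and monocytes with interstitial macrophages (9.21, against 8.12 to 8.85) were also the highest of the SP group. Their part in the Mrc1 value was not tested.

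Marco (NM_010766), a class A scavenger receptor that binds bacteria and inhaled particles, was dim on every array. Its signal was 5.44, 5.23, 5.17 and 5.23 in PBS and 4.93, 4.95, 5.06 and 5.49 in SP. The highest SP array exceeded all PBS arrays, so the groups overlapped. The difference was -0.16 (SE 0.13, interval -0.47 to 0.15, adjusted p = 0.327), and with arrays centred on their medians it was 0.12. All of its values lay just above those of the Y-linked genes.

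Other receptors of the scavenger and mannose receptor families moved in both directions. Among 11 such genes, 4 were called lower and 3 higher, with a median difference of -0.31. Cd209a, a C-type lectin typical of dendritic cells, fell most, from 7.18 ± 0.44 to 5.21 ± 0.32 (3.94-fold, limma adjusted p = 0.000327). Msr1, the class A scavenger receptor most closely tied to uptake of modified lipoproteins, rose from 6.73 ± 0.38 to 10.11 ± 0.52 (10.4-fold, limma adjusted p = 5e-05). Mrc2, the mannose receptor relative that binds collagen, was 6.64 ± 0.33 in PBS and 5.56 ± 0.10 in SP, a called fall of 1.08 on the log2 scale. The other calls were Cd36 and Colec12, both lower, and Ly75 and Cd68, both higher. The list had 3 genes called lower with centred arrays and 2 after another quantile normalization.

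Ear1 and Ear2 belong to the mouse eosinophil-associated ribonucleases, a cluster of recently duplicated genes of the RNase A superfamily. Despite the family name, alveolar macrophages are a known source of both. Because the copies are so alike, probes of one may also read another, and values of single members are uncertain to that extent. The RefSeq promoter windows of Ear1, Ear2, Ear10 and Ear6 (build GRCm38.p6, 250 bases before to 50 after the start, 300 bases in all) are shown because Ear6 moved against the other copies. Most of each window lies before the start, so its likeness does not show what the probes read. Transcript and probe sequences were not compared. Capitals mark matches to TTGCNNAA on either strand, a motif of the C/EBP family of myeloid transcription factors, which was searched for after the values were known.

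Ear1, chr14:43819590-43819889 (- strand): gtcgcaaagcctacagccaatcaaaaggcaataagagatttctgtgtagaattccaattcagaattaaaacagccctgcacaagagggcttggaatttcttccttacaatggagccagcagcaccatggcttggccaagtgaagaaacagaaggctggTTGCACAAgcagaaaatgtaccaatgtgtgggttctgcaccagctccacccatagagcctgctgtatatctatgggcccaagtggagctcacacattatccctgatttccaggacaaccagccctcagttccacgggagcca
Ear2, chr14:44102404-44102703 (+ strand): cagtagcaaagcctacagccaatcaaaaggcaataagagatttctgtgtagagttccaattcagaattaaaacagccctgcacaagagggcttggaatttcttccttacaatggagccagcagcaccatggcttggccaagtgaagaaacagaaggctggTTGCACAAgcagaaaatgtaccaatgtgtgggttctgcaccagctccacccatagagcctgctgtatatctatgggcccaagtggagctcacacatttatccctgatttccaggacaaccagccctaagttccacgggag
Ear10, chr14:43923547-43923846 (- strand): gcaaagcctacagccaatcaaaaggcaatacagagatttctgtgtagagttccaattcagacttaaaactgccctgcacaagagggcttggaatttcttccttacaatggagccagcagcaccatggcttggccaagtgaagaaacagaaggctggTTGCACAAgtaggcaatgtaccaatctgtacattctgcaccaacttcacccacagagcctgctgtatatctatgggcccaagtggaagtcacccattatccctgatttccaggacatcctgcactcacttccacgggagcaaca
Ear6, chr14:51853518-51853817 (+ strand): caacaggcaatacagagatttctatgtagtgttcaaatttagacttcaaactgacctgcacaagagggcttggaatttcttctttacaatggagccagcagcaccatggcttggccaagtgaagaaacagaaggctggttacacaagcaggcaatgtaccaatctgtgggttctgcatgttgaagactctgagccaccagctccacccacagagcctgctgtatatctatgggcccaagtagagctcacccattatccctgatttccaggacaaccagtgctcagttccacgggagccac

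The Ear1 and Ear2 windows were identical at 294 of 297 aligned bases (99%). Ear10 matched Ear1 at 276 of 297 aligned bases (92.9%), and Ear6 matched it at 259 of 279 (92.8%) with a gap of 19 bases in Ear1. The motif was present once each in Ear1, Ear2 and Ear10, and had no match in the Ear6 window, where the matching stretch differed by G161A, with positions counted from 1 at the 5′ end of the Ear1 window and the Ear1 base first. Of 32851 promoter windows, 3547 (10.8%) held at least 1 match, so its presence is common. A match describes letters only and is not evidence of binding. Among the other markers, Ctsk, Plet1 and 1 of the 3 Pparg windows also held it, while windows of Marco, Mrc1, Ctsk and Pparg held GAGGAA, a motif of PU.1, which was present in 28.3% of all windows.

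Ear1 (NM_007894) had signals of 11.60, 10.57, 10.61 and 10.93 in PBS and 8.99, 9.15, 8.79 and 9.28 in SP. The SP arrays were tightly grouped, and more than 1 log2 unit separated the highest of them from the lowest PBS array. The mean went from 10.93 ± 0.48 to 9.05 ± 0.21, a fall of 1.88 on the log2 scale (SE 0.23, interval of the difference -2.40 to -1.35) or 3.68-fold, with a limma adjusted p of 0.000352.

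For Ear2 (NM_007895) the signals were 12.06, 11.11, 11.26 and 11.54 in PBS and 9.95, 10.02, 9.95 and 10.15 in SP. The 4 SP arrays were nearly alike, and PBS replicate 1 was the highest array, as it was for Ear1. The mean went from 11.50 ± 0.42 to 10.01 ± 0.09 (difference -1.48, SE 0.19, interval -1.92 to -1.04), 2.79-fold lower in SP with a limma adjusted p of 0.000464. Ear10, which was not among the 10 markers, had the values nearest to Ear2 of all named genes once each gene was centred (root mean square difference 0.047 log2 units over 8 arrays), and fell 2.65-fold, from 10.98 ± 0.43 to 9.58 ± 0.07.

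Ear6 (NM_053111) went the other way. Its signal was 6.68, 5.56, 5.74 and 6.01 in PBS and 8.68, 8.86, 7.40 and 8.57 in SP, so every SP array exceeded every PBS array. SP replicate 3 was the lowest of the SP arrays and PBS replicate 1 the highest of the PBS arrays. The mean rose from 6.00 ± 0.49 to 8.38 ± 0.67, a difference of 2.38 (SE 0.36, interval 1.57 to 3.19) or 5.20-fold, with a limma adjusted p of 0.00102.

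The within-array difference between 2 copies removes any shift that a whole array shares. Ear6 minus Ear1 was -4.93 ± 0.06 in PBS and -0.67 ± 0.52 in SP, a change of 4.26 log2 units, and the corresponding changes against Ear2 and Ear10 were 3.86 and 3.78. Ear2 minus Ear1 changed by 0.40, from 0.57 ± 0.08 to 0.96 ± 0.14, and Ear10 minus Ear2 by 0.08, from -0.52 ± 0.03 to -0.44 ± 0.03. The PBS and SP arrays did not overlap in any of the 6 pairs of copies. The pairs were formed after the values had been seen, so no test is given, and for the pairs with Ear6 the separation follows from the values of the single genes. Levels of different probes are not compared.

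**Figure D2:**
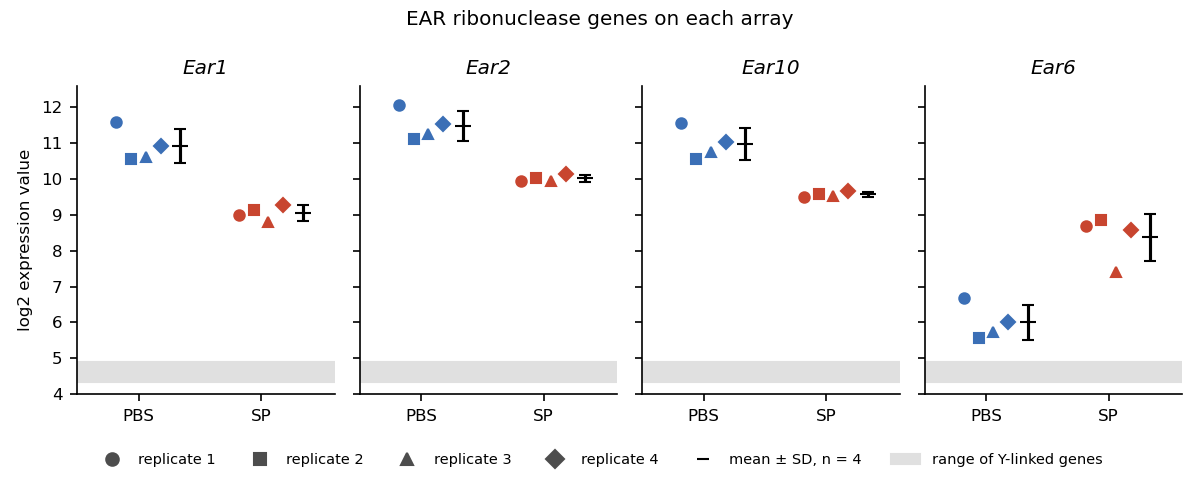
Log2 RMA signal of 4 EAR family copies on the 8 arrays, PBS and SP side by side, with the group mean ± SD (n = 4) and the range of the Y-linked genes in grey. Ear1, Ear2 and Ear10 are lower on all SP arrays than on all PBS arrays, and Ear6 is higher on all SP arrays.

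Of 8 further EAR and RNase A genes with a row, Ear10 and angiogenin (Ang) were called lower, Ear6 was called higher, and 5 did not pass. Ang, a secreted ribonuclease with many cellular sources, fell from 10.50 ± 0.11 to 7.76 ± 0.59, or 6.67-fold (limma adjusted p = 0.000101). Eosinophils express EAR genes too. Of 6 eosinophil genes, only Alox15 was called (lower, -1.36), and Alox15 is also made by resident macrophages of some tissues. Epx and Prg2, the granule peroxidase and major basic protein that define eosinophils, were at 4.14 to 4.79 and 4.20 to 5.02 over all 8 arrays, at or near the level of the Y-linked genes. In the same list, Ccr3 and Il5ra lay above that level. Ccr3 was 7.85, 4.97, 6.37 and 5.95 in PBS and 5.95 to 6.46 in SP, and Il5ra was 5.50 to 5.95 over all 8 arrays. Like Ear1 and Ear2, Ccr3 was highest in PBS replicate 1. The part of eosinophils in the EAR values was not tested. The mean of the eosinophil list ranged from 5.55 to 6.44 in PBS and from 5.59 to 5.96 in SP.

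Pparg (NM_001127330) encodes the receptor that alveolar macrophages need to mature and to clear surfactant lipid. Signals were 8.74, 7.94, 8.41 and 8.70 in PBS and 6.79, 6.92, 6.52 and 7.56 in SP. PBS replicate 2 was the lowest PBS array, SP replicate 4 the highest SP array, and the groups stayed apart. The mean went from 8.45 ± 0.37 to 6.95 ± 0.44 (difference -1.50, SE 0.25, interval -2.07 to -0.92), 2.83-fold lower in SP with a limma adjusted p of 0.00183.

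Genes of PPARγ-linked lipid handling did not follow Pparg as a group. Of 16 such genes, 5 were called lower (Pltp, Cidec, Cd36, Acaa2 and Pdk4), 5 were called higher (Hilpda, Nr1h3, Abca1, Plin2 and Angptl4), and 6 did not pass, with a median of -0.01 that was 0.27 with centred arrays and -0.07 after another quantile normalization. Pltp, a phospholipid transfer protein, fell 6.31-fold, from 11.40 ± 0.39 to 8.74 ± 0.51 (limma adjusted p = 0.000161). Hilpda, which blocks lipolysis on lipid droplets and responds to hypoxia, rose 5.14-fold, from 9.34 ± 0.26 to 11.70 ± 0.28 (limma adjusted p = 2.74e-05). Nr1h3, the oxysterol receptor LXRα, was 7.33 ± 0.33 in PBS and 9.64 ± 0.99 in SP, and its signal in SP replicate 3 was 8.18 against 9.86 to 10.31 in the other SP arrays. Cd36 is also abundant in lung endothelium and Pltp in lung epithelium, whose marker lists were lower in SP. Which cells gave the rises and the falls of this list was not tested.

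Genes upstream of Pparg in macrophage development were more often higher than lower. Of 17 genes of the GM-CSF and TGF-β pathways and of macrophage transcription factors, 9 were called higher and 1 lower, with a median of 1.02. Csf2, the gene of GM-CSF, rose 2.89-fold, from 5.93 ± 0.19 to 7.46 ± 0.28 (limma adjusted p = 0.000138). Bhlhe40, a basic helix-loop-helix repressor, rose 8.54-fold, from 9.08 ± 0.29 to 12.18 ± 0.08 (limma adjusted p = 4.12e-06). Bach2 was the gene called lower, at 7.17 ± 0.39 in PBS and 5.56 ± 0.33 in SP, and is best known as a repressor in lymphocytes. Many of these genes are expressed by neutrophils and other leukocytes too.

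Krt79 (NM_146063) is a keratin of skin glands that is also a transcript marker of alveolar macrophages. Its signal was 7.73, 6.85, 6.52 and 6.64 in PBS and 4.97, 4.68, 5.12 and 4.93 in SP. All SP arrays were at or just above the level of the Y-linked genes, so the 4.02-fold fit (difference -2.01, SE 0.25, interval -2.58 to -1.43, limma adjusted p = 0.000409) gives only a rough size. The nearest gene in pattern was Cd209a, at a root mean square difference of 0.133, followed by Npr3 at 0.159. Whereas Krt79 is not a general epithelial keratin, Krt8, Krt18 and Krt19 were called lower as well, among 6 of 9 lung epithelial genes. The mean of that epithelial list was 11.94 to 12.28 in PBS and 10.02 to 10.98 in SP, and its part in the Krt79 value was not tested.

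**Figure D3:**
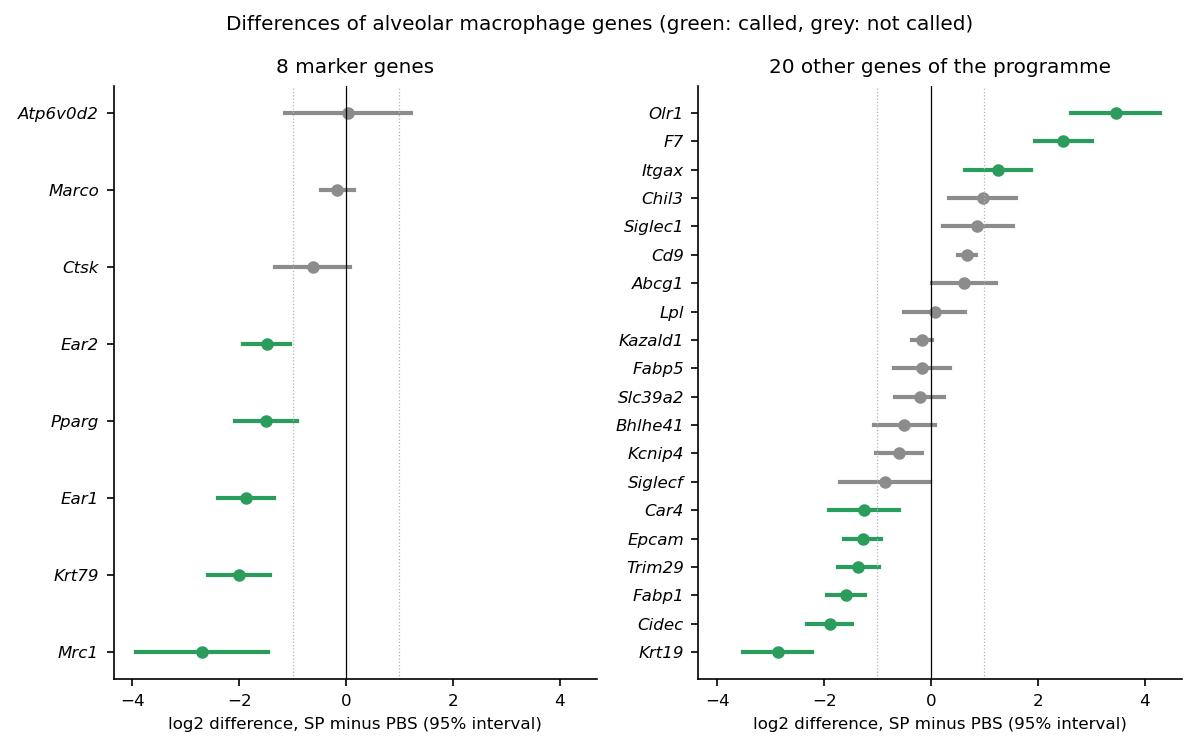
SP minus PBS difference in log2 signal for each of the 8 markers (left) and 20 other genes of the alveolar macrophage programme (right), with the 95% confidence interval from limma, green where called. The intervals of Mrc1, Krt79, Ear1, Pparg and Ear2 lie wholly below 0, and those of Ctsk, Marco and Atp6v0d2 include 0.

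Atp6v0d2 (NM_175406) encodes the d2 subunit of the membrane part of the vacuolar proton pump, the form found in osteoclasts and in some macrophages. Its signal was 10.59, 9.30, 9.65 and 9.79 in PBS and 10.42, 10.58, 8.25 and 10.23 in SP. SP replicate 3 was about 2 log2 units under the other SP arrays, each of which exceeded 3 of the 4 PBS arrays. The mean was 9.83 ± 0.54 in PBS and 9.87 ± 1.09 in SP, a difference of 0.03 (SE 0.52, interval -1.15 to 1.22, limma adjusted p = 0.958). The interval allows a change of 2-fold either way. Without SP replicate 3 the difference was 0.57 (limma adjusted p = 0.132), and without PBS replicate 1 as well, an exclusion chosen after seeing the data, it was 0.82 (limma adjusted p = 0.00867), still under the 2-fold rule.

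Ctsk (NM_007802) encodes cathepsin K, the cysteine protease with which osteoclasts degrade collagen. Its signal was 8.72, 8.75, 8.34 and 8.35 in PBS and 8.30, 8.03, 6.95 and 8.40 in SP. Again SP replicate 3 was the lowest, and SP replicate 4 exceeded the lower pair of PBS arrays, so the groups overlapped. The difference was -0.62 (SE 0.30, interval -1.32 to 0.08, limma adjusted p = 0.123), and without SP replicate 3 it was -0.30. In SP replicate 3 the neutrophil list mean was 13.02, against 12.04 to 12.49 in the other SP arrays, and the epithelial, endothelial and monocyte list means were the lowest of the SP group. Their part in the Atp6v0d2 and Ctsk values was not tested.

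Of 15 further pump subunits, 5 were called higher and none lower, with a median of 0.91. Atp6v1c1, a subunit of the cytosolic part, rose from 9.17 ± 0.18 to 11.26 ± 0.45 (4.24-fold, limma adjusted p = 0.000146), whereas Atp6v0d1, the widely expressed counterpart of Atp6v0d2, was 11.11 ± 0.33 in PBS and 11.60 ± 0.24 in SP (limma adjusted p = 0.0599). The count of pump genes depended on scaling, with 9 called higher after centring and 3 after another quantile normalization. Of 15 osteoclast-type genes, 7 were called higher and none lower, with a median of 0.66. Clcn7, the chloride exchanger that works beside the pump, rose 8.65-fold, from 8.64 ± 0.08 to 11.75 ± 0.44 (limma adjusted p = 1.49e-05), and Tcirg1, the a3 pump subunit, rose 4.37-fold. Acp5, tartrate-resistant acid phosphatase, rose 4.54-fold, from 8.66 ± 0.20 to 10.84 ± 0.22. Of 12 other cathepsins, 3 were called higher (Ctss, Ctsz and Ctsb) and none lower, with a median of 0.15, against 2 called higher and a median of -0.05 after another quantile normalization. Ctss, a cathepsin of antigen-presenting cells, rose 4.26-fold, from 10.14 ± 0.33 to 12.23 ± 0.22 (limma adjusted p = 5.94e-05).

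**Figure D4:**
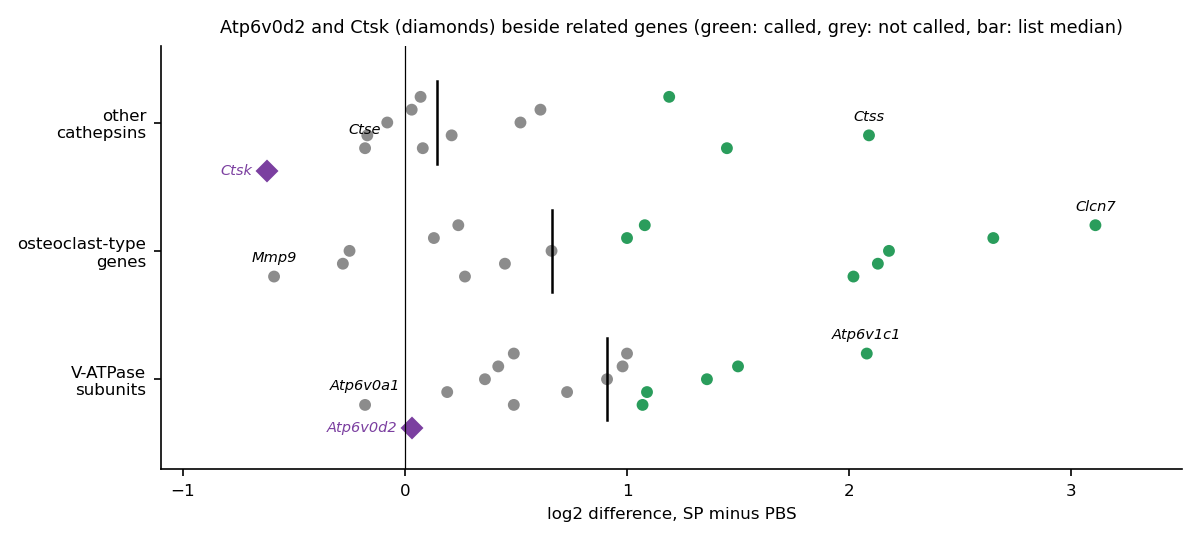
SP minus PBS difference in log2 signal for Atp6v0d2, Ctsk and the genes of the pump, osteoclast-type and cathepsin lists, 1 point per gene, green where called, with a bar at each list median and diamonds for Atp6v0d2 and Ctsk. Called points of these lists all lie to the higher side, with Clcn7 at 3.11, and neither Atp6v0d2 (0.03) nor Ctsk (-0.62) was called.

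A second list of 20 genes of the alveolar macrophage programme, which held none of the 10 markers, split in direction. Of these, 6 were called lower (Krt19, Cidec, Fabp1, Trim29, Epcam and Car4), 3 were called higher (Olr1, F7 and Itgax), and 11 did not pass. The median was -0.19, and it was 0.09 with centred arrays, where 5 were called lower and 5 higher. Another quantile normalization gave 6 lower and 4 higher. Krt19 and Epcam are shared with the epithelial list and Car4 with the endothelial list. Among the higher genes, Itgax encodes CD11c, and the paper reports more CD11c protein on Ly6G-positive neutrophils in pneumonia. The cell source of the rises and falls was not tested. Olr1, an oxidized lipoprotein receptor, rose 11-fold, from 8.83 ± 0.83 to 12.29 ± 0.15 (limma adjusted p = 0.000166). Krt19 fell 7.31-fold, from 11.63 ± 0.14 to 8.76 ± 0.64 (limma adjusted p = 0.000119). Siglecf, the surface lectin most used to sort alveolar macrophages and also an eosinophil gene, was 8.52, 7.29, 8.40 and 8.37 in PBS and 7.61, 7.85, 6.42 and 7.25 in SP, and its difference of -0.86 did not pass (limma adjusted p = 0.0841). Lpl, lipoprotein lipase, differed by 0.07 (adjusted p = 0.826).

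The gene nearest in pattern to Ear1 was Cidec, a lipid droplet protein, at a root mean square difference of 0.111 log2 units over the 8 centred arrays, followed by Acss2 at 0.23. For Ear2, Ccna2, a cyclin of dividing cells, came after Ear10 at 0.144. The nearest to Pparg were Tmem64 (0.138) and Ttll1 (0.173). Those nearest to Mrc1 were further off: Ltbp4 at 0.371, a matrix protein that binds latent TGF-β, and Aqp1 at 0.387, the water channel of lung endothelium. Aqp1 was 11.80, 11.56, 11.56 and 11.15 in PBS and 8.67, 8.77, 8.09 and 10.09 in SP, so it too was highest in SP replicate 4 among the SP arrays. Because the 8 arrays form 2 groups, the measure includes the group difference, and it says nothing of shared function.

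Some arrays stood high or low in several markers. PBS replicate 1 was the highest PBS array in 7 of the 8 markers and lay 0.51 log2 units above its group mean on average. It was also the highest PBS array in the list means of monocytes with interstitial macrophages (8.86), dendritic cells (7.36) and eosinophils (6.44). The epithelial and endothelial list means were highest in PBS replicate 2 and the neutrophil list mean in PBS replicate 3. The part of these lists in the marker values was not tested. SP replicate 4 was the highest SP array in 6 of 8 (0.50 above), and SP replicate 3 was the lowest in 4 of 8 (mean deviation -0.46). The largest deviation in SP replicate 4 was that of Mrc1 (8.40 against an SP mean of 6.64). In SP replicate 3 the largest were Atp6v0d2 (8.25 against 9.87) and Ctsk (6.95 against 7.92). For Krt79, SP replicate 3 was the highest SP array. The mean over the 8 markers was 9.36, 8.61, 8.63 and 8.79 in PBS and 7.53, 7.55, 7.10 and 8.06 in SP, with all SP arrays below all PBS arrays.

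Of 12 endothelial genes 10 were called lower, with a median of -1.39 and a list mean of 10.24 to 11.24 in PBS and 8.63 to 9.76 in SP, and Kdr, the VEGF receptor, fell most, 4.15-fold (limma adjusted p = 0.0051). The 9 epithelial genes had 6 called lower and a median of -1.48. Among 15 monocyte and interstitial macrophage genes 3 were called higher and 1 lower, with a median of 0.13 and list means of 8.03 to 8.86 in PBS and 8.12 to 9.21 in SP. Folr2, a folate receptor of resident macrophages, fell 2.48-fold (limma adjusted p = 0.00989). Of 7 dendritic cell genes 1 was called lower (Cd209a), with list means of 6.85 to 7.36 in PBS and 6.22 to 6.56 in SP. None of 8 neutrophil genes was called, at list means of 12.77 to 13.02 in PBS and 12.04 to 13.02 in SP. The smallest adjusted p among them was that of Retnlg (-0.47, limma adjusted p = 0.0418), and Ly6g had no matched row. The part of these shifts in the marker values was not tested.

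**Figure D5:**
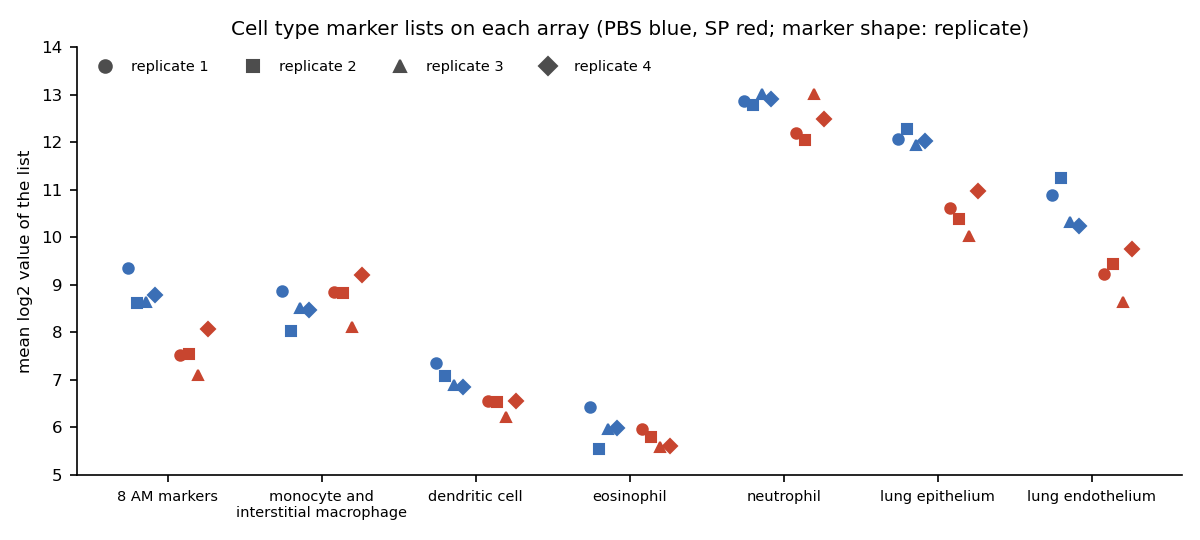
Mean log2 signal per array over the marker list and over lists of other cell types, PBS in blue and SP in red, with a shape for each replicate. The list mean of the alveolar macrophage markers (8.61 to 9.36 in PBS, 7.10 to 8.06 in SP) is lower on all SP arrays. So are those of the epithelial, endothelial and dendritic cell genes (dendritic 6.85 to 7.36 in PBS, 6.22 to 6.56 in SP). The monocyte, eosinophil and neutrophil list means overlap between groups.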

How the data were processed

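The deposited table holds log2 signals of Affymetrix Mouse Gene ST arrays, which the authors normalized with RMA in Expression Console, 1 column per sample (the submitters' processing notes also name Partek), and no depth applies. The number of arrays, 4 per group, limits the precision. Rows carry RefSeq transcript identifiers, and 19915 of 24625 (80.9%) were paired with a symbol through a RefSeq table. Limma 3.58.1 in R 4.3.3 compared SP with PBS over all rows with no covariate in a two-sided test, and p-values were adjusted by Benjamini-Hochberg across the whole table. The fit was tested on simulated data. Promoter windows were aligned with Biopython 1.88.

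The markers and gene lists were chosen with earlier results of these data known. Named genes were all markers with a row, of each list the called genes with the largest rise and fall (where none was called, the gene with the smallest adjusted p), and for each called marker the 2 nearest genes by row-centred values. A gene that this rule names is not reported here. Other genes named were chosen after their values were seen. Alternatives were the methods' one-way ANOVA, a robust variance prior, replicate blocks, array weights, 2 other scalings, a filter on dim rows, 1 row per symbol, limma treat and leaving out each array.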

Additional observations from a re-analysis of the deposited data

Results flagged for a closer look

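Each of the 8 markers was examined in each group for a single array apart from the other 3, by the gap to the nearest array as a share of the group's range and set against Dixon's critical value for 4 samples. Of 16 groups, 3 passed, and chance passes about 1 in 20. Mrc1 in PBS replicate 1 was the highest of its group, with a gap of 0.971 of the range (10.01 against 9.10 to 9.13). Mrc1 in SP replicate 4 was the highest of its group, with a gap of 0.897 (8.40 against 5.89 to 6.15). Atp6v0d2 in SP replicate 3 was the lowest of its group, with a gap of 0.852 (8.25 against 10.23 to 10.58).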

How the results depend on the processing

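The count of markers called lower, 5, was the same in every setting that tested all 8 except limma treat, which tests against a 2-fold difference and called 2 (Ear1 and Krt79). Under treat the adjusted p was 0.199 for Ear2, 0.0892 for Mrc1 and 0.398 for Pparg. No marker was called higher in any setting. With dim rows left out 6 markers were tested and 4 were called lower, and Marco and Krt79 have no value there. Leaving out each array in turn kept the count at 5 to 5. Over those settings the difference ranged from -2.0 to -1.65 for Ear1, -1.61 to -1.29 for Ear2, -2.14 to -1.74 for Krt79, -3.29 to -2.45 for Mrc1, -1.70 to -1.36 for Pparg, -0.29 to -0.10 for Marco and -0.78 to -0.30 for Ctsk. Without SP replicate 4 Marco had its lowest limma adjusted p (0.0396) at a difference of -0.29, under the 2-fold rule. A change of sign was seen in 2 markers that were not called. Marco was 0.12 with centred arrays, and Atp6v0d2 ranged from -0.20 to 0.57 when single arrays were left out. The cause was not tested. With the replicate number as a block 5 markers were called lower and 0 higher. Deviations of same-numbered arrays correlated at 0.016, 0.03, 0.35 and -0.274. These mixed values cannot decide whether the numbers pair the samples, and the main fit used no block. Leaving out 2 arrays at once (PBS replicate 1 with SP replicate 3 or 4), chosen after seeing the data, also gave 5 lower, and with SP replicate 3 out Atp6v0d2 was 0.82.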

Other observations

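Genes of alternative macrophage activation, the state with which Mrc1 is often grouped, were split. Of 8 genes, 3 were called lower (Mgl2, Retnla and Clec10a) and 2 higher (Arg1 and Pdcd1lg2), with a median difference of 0.37, and 2 lower with 3 higher were called after centring arrays. Mgl2, a galactose-binding lectin of macrophages and dendritic cells, was 7.95, 6.90, 6.89 and 6.74 in PBS and 4.56, 4.88, 4.21 and 5.02 in SP, a fall of 2.45 on the log2 scale (limma adjusted p = 0.000295) to near the level of the Y-linked genes. Arg1, arginase 1, was 4.94, 4.74, 4.67 and 4.81 in PBS, at that level, and 9.77, 9.01, 8.16 and 10.73 in SP, with a fitted difference of 4.63 (limma adjusted p = 0.00014). Like Mrc1, Arg1 was highest in SP replicate 4 among the SP arrays.

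Fabp4 had no row, and of 8 other fatty acid-binding protein genes only Fabp1 was called. It was 6.98, 7.0, 6.32 and 6.61 in PBS and 5.07, 5.17, 5.17 and 5.12 in SP, 3.01-fold lower (limma adjusted p = 0.000102). Fabp5, the form shared by macrophages and epithelium, was 10.08 ± 0.36 in PBS and 9.91 ± 0.37 in SP (limma adjusted p = 0.54). Fabp7 was 5.15 ± 0.19 in PBS and 6.01 ± 0.24 in SP, under the 2-fold rule (limma adjusted p = 0.00181). Under each of the other scalings 1 gene of this list was called higher.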
